A study of Rattus norvegicus with 18 samples.

Results

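The 6 lysosomal genes Cd68, Cd63, Ctsd, Ctss, Acp5 and Naaa were followed in rat lung during cigarette smoke exposure. The 6 symbols were named with earlier results of these data known, so their counts are not independent of those results, and a row of the deposited table was taken when the probe-to-gene table gave it 1 of these symbols. This took 12 of 11994 rows, which are 6 of 5997 distinct probes and 6 of 4616 genes, since every probe stands in the table at 2 places. Each gene was therefore read by 1 distinct probe, and each had a value in 18 of 18 samples.

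Lysosomes are acidic compartments in which proteases, lipases, phosphatases and other hydrolases break down material that a cell has taken up or recycles. In the lung, alveolar macrophages rely on them to clear inhaled particles, and macrophages of smokers are known to carry brown particulate inclusions. Cd68 encodes a heavily glycosylated membrane protein of the macrophage endosome and lysosome, and Cd63 a tetraspanin of late endosomes, lysosomes and exosomes. Ctsd and Ctss encode cathepsin D, an aspartic protease, and cathepsin S, a cysteine protease that also trims the invariant chain of MHC class II. Acp5 encodes tartrate-resistant acid phosphatase, a marker of osteoclasts and of some tissue macrophages, and Naaa the N-acylethanolamine acid amidase, which hydrolyses palmitoylethanolamide.

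Rats were exposed by nose to cigarette smoke at a low dose (300 µg TPM per litre) or a high dose (600 µg TPM per litre), or to conditioned fresh air, for 2, 7 or 13 weeks, and whole lungs were taken 2, 6 or 20 hours later. All groups, air included, had 2 sessions of 1 h daily, 30 min apart, 5 days per week. RNA of 4 rats was pooled per group, and smoke RNA labelled with Cy5 was hybridised together with air RNA labelled with Cy3 on customized PIQOR arrays, 2 per sample. This gave 9 low dose and 9 high dose samples, 1 for each combination of dose, weeks and hours, and both doses of a combination shared 1 of 9 control pools. The sources used here do not give strain, sex or age. A value is the log2 ratio of smoke over air, in the direction the channel labels give, so a value of 1 stands for 2 times the level in air. The spread between combinations is the only error available, and the p-values measure that spread. Without a dye swap, a constant dye effect and a smoke effect cannot be told apart in a mean against air, whereas such an effect cancels in a difference between doses. In whole lung, a change in the number of cells of a type and a change in RNA per cell cannot be told apart, and log2 ratios hold no level by which the tissue label could be checked.

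The bases before the RefSeq transcription start were read because the log2 ratios of the 6 genes correlated over the 18 samples, which share control pools in pairs. Over the 9 differences between doses, Pearson's r between genes ran from -0.43 to 0.54. For the motifs found in them, 3 promoters are shown. Each window holds 250 bases upstream of the start in assembly GRCr8, written 5′ to 3′ along the gene. The windows are chr10:54882442-54882691 on the minus strand for Cd68, chr7:1921894-1922143 on the plus strand for Cd63 and chr1:206968822-206969071 on the minus strand for Ctsd. Capitals mark the E-box core CACGTG, which lies within the element that the lysosomal regulator TFEB is known to bind, and the AP-1 motif TGANTCA. Each of these motifs was held by 2 of 6 genes, and the windows of Ctss, Acp5 and Naaa held neither.
Cd68: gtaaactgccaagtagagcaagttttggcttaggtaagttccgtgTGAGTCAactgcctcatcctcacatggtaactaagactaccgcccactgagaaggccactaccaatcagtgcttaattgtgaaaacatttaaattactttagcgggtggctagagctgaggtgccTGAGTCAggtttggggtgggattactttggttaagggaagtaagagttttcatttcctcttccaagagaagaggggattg
Cd63: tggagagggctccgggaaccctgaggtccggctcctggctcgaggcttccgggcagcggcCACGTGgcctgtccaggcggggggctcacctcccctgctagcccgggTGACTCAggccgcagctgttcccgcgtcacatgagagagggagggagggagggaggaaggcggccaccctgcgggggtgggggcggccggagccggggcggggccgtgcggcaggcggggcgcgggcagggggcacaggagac
Ctsd: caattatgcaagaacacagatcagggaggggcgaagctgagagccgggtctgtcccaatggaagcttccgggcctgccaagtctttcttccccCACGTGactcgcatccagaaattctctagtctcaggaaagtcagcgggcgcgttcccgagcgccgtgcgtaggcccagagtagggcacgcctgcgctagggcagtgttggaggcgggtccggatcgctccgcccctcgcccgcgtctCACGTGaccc
Both strands of all 33469 such windows were searched, 3932 of them for genes on the array. CACGTG began 190 bases before the start of Cd63, and 157 and 10 bases before that of Ctsd, and 5.59% of all windows and 7.15% of those of array genes held it. The copy nearest the Ctsd start was part of TCACGTGA, which contains CACGTG and was held by 0.657% of all windows and 1.04% of those of array genes. TGANTCA stood 205 and 80 bases before the start of Cd68 and 143 bases before that of Cd63, against 6.34% of all windows and 5.54% of those of array genes. The PU.1 motif GAGGAAGT was found in the Ctss window, in 2.04% of all windows and in 2.29% of those of array genes. The antioxidant response element core TGACNNNGC was found in the Naaa window and in 1 of the 2 windows of Acp5, in 10.1% of all windows and in 13.0% of those of array genes. GCGTG, the core of the xenobiotic response element, was found among the 6 genes only in the Ctsd window (25.9% of all windows, 41.4% of those of array genes). TATAAA was found only in the Ctss window (12.9% and 8.98%) and CCAAT in those of Cd68, Ctsd and Naaa (34.0% and 35.7%). Base composition differed between the windows shown, with 45.2% G and C for Cd68, 76.4% for Cd63 and 63.2% for Ctsd, against a median of 51.2% over all windows and 60.0% over those of array genes. These matches describe the letters in the windows, and binding was not measured.

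All 6 genes were higher in smoke-exposed than in air-exposed lung at both doses. At the high dose the mean rise ran from 1.58-fold for Cd63 to 2.18-fold for Cd68, and at the low dose from 1.33-fold for Cd63 to 1.70-fold for Cd68. By limma with Benjamini-Hochberg adjustment over the 4016 genes tested, and a threshold of 0.05, 6 of 6 genes passed as higher at the high dose, where 9.56% of all genes tested did. At the low dose 6 of 6 passed as higher, against 3.51% of all genes tested. In the exact sign-flip permutation test over the 9 samples, 6 of 6 passed as higher at the high dose after adjustment, against 4.78% of all genes. Each of the 6 had the smallest possible p of 0.00391, and the adjusted p of 0.0487 was just under the threshold. At the low dose 0 of 6 and 0% of all genes passed the sign-flip test, since the same smallest p of 0.00391 gave an adjusted p of 0.114. The median of the 6 log2 means was 0.83 at the high dose and 0.59 at the low dose, beside medians of 0.003 and -0.002 over all genes. Of the 108 values of the 6 genes, 91 were at or above the 95th percentile of their own sample. Of the 6 genes 5, all except Cd63, were above air in 18 of 18 samples, which was true of 1.52% of the 3560 genes that had all 18 values.

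**Figure D1:**
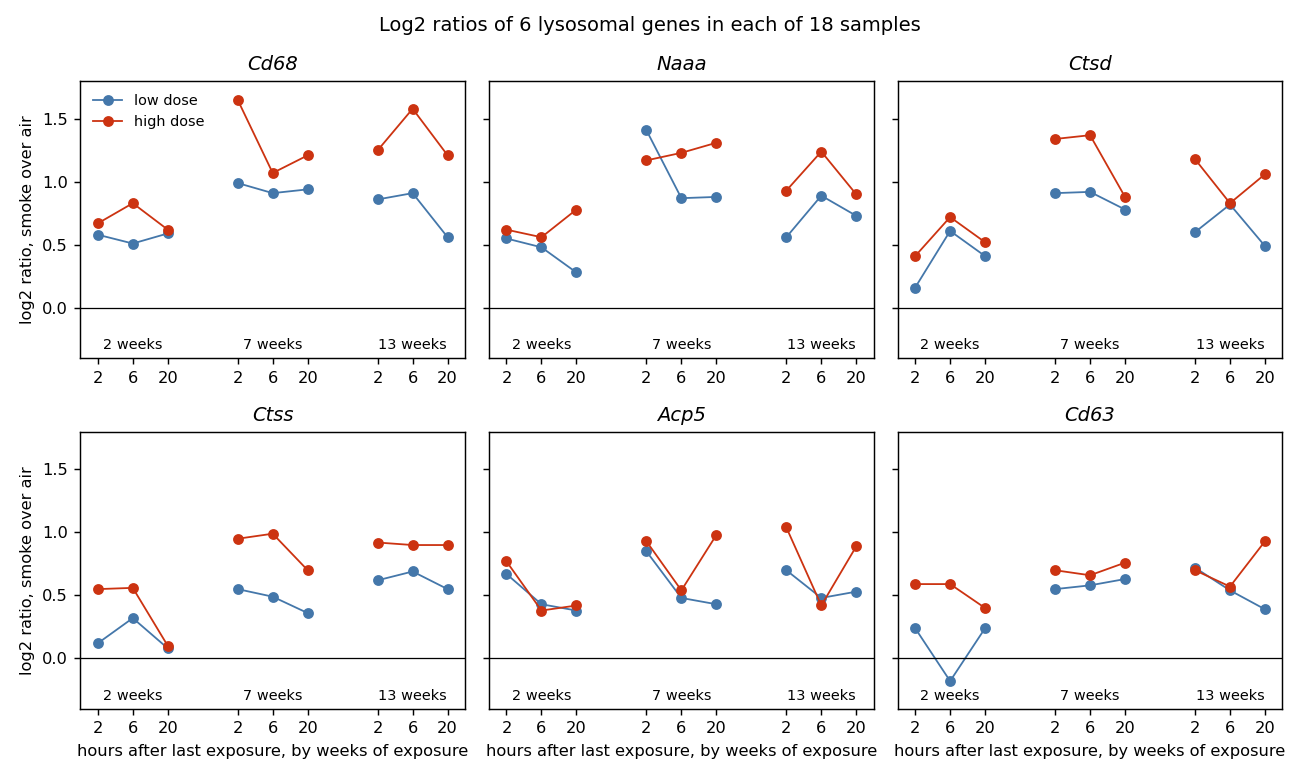
Log2 ratio of smoke over air (vertical axis) of each gene in every sample, by weeks of exposure and hours after the last exposure, with the samples of a dose and length of exposure joined by a line. Every point lies above 0 except Cd63 at the low dose after 2 weeks and 6 hours, at -0.18, and for Cd68, Ctsd and Naaa every point after 2 weeks lies below every point after 7 weeks.

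Cd68, the membrane protein widely used as a macrophage marker, had the highest mean of the 6 at both doses. Its 9 high dose log2 ratios had a lowest value of 0.62, a median of 1.21 and a highest value of 1.65, and its low dose values 0.51, 0.86 and 0.99. No sample lay near 0, and the lowest at each dose came after 2 weeks. The mean was 1.12 ± 0.10 (SE, n = 9) at the high dose (95% interval 0.91 to 1.34, limma adjusted p = 4.69e-06) and 0.76 ± 0.07 (SE, n = 9) at the low dose (limma adjusted p = 1.37e-05). Ordered by the size of the rise among the 4016 genes tested, Cd68 stood at place 11 at the high dose and at place 9 at the low dose. In each sample at least 96.7% of the measured genes had a lower ratio than Cd68.

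Cd63, the tetraspanin, had the smallest mean rise of the 6 at both doses and the least spread at the high dose. Its high dose values had a lowest value of 0.40, a median of 0.66 and a highest value of 0.93. Its low dose values were -0.18, 0.54 and 0.72 in the same order, and the lowest, after 2 weeks and 6 hours, was the single value below air among the 108. The mean was 0.66 ± 0.05 (SE, n = 9) at the high dose (limma adjusted p = 2.86e-06) and 0.41 ± 0.08 (SE, n = 9) at the low dose, where 8 of 9 samples were above air (limma adjusted p = 0.00771). The low dose call of Cd63 was lost when the samples of 7 weeks (adjusted p = 0.153) or of 13 weeks (adjusted p = 0.173) were left out, and likewise without those of 2 hours (adjusted p = 0.115) or 20 hours (adjusted p = 0.0569), in limma.

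Ctsd, the aspartic protease, spread more widely than Cd63 at the high dose (SD 0.34 against 0.15) but not at the low dose (SD 0.25 against 0.28). Its high dose values had a lowest value of 0.41, a median of 0.88 and a highest value of 1.37, and its low dose values 0.16, 0.61 and 0.92. The mean was 0.92 ± 0.09 (SE, n = 9) at the high dose, or 1.90-fold, and 0.63 ± 0.08 (SE, n = 9) at the low dose, or 1.55-fold, with limma adjusted p = 1.93e-05 and 0.000284. The lowest value at each dose was that of 2 weeks and 2 hours.

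Ctss, the cysteine protease, had 1 high dose sample apart from the rest. Its high dose values had a lowest value of 0.10, a median of 0.90 and a highest value of 0.99, and the lowest, after 2 weeks and 20 hours, lay well below the next at 0.55. Its low dose values were 0.08, 0.49 and 0.69, and the lowest came from the same combination and thus the same control pool. The mean was 0.73 ± 0.08 (SE, n = 9) at the high dose (limma adjusted p = 4.67e-05) and 0.42 ± 0.07 (SE, n = 9) at the low dose (limma adjusted p = 0.00261). The low dose call of Ctss was lost without the samples of 7 weeks (adjusted p = 0.0573) or of 13 weeks (adjusted p = 0.09), in limma.

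Acp5, the acid phosphatase, and Naaa, the amidase, were above air in 18 of 18 samples each. The high dose values of Acp5 had a lowest value of 0.38, a median of 0.77 and a highest value of 1.04, and its low dose values 0.38, 0.48 and 0.85, so that the doses overlapped over most of their range. Its mean was 0.71 ± 0.08 (SE, n = 9) at the high dose (limma adjusted p = 3.77e-05) and 0.55 ± 0.06 (SE, n = 9) at the low dose (limma adjusted p = 0.000118). Naaa had high dose values with a lowest value of 0.56, a median of 0.93 and a highest value of 1.31. Its low dose values were 0.28, 0.73 and 1.41, and the highest, after 7 weeks and 2 hours, exceeded every high dose value of this gene. The mean of Naaa was 0.97 ± 0.08 (SE, n = 9) at the high dose, or 1.96-fold, and 0.74 ± 0.09 (SE, n = 9) at the low dose, or 1.67-fold, with limma adjusted p = 2.87e-06 and 0.000371. By size of rise Naaa stood at place 19 of 4016 genes at the high dose and at place 10 at the low dose.

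**Figure D2:**
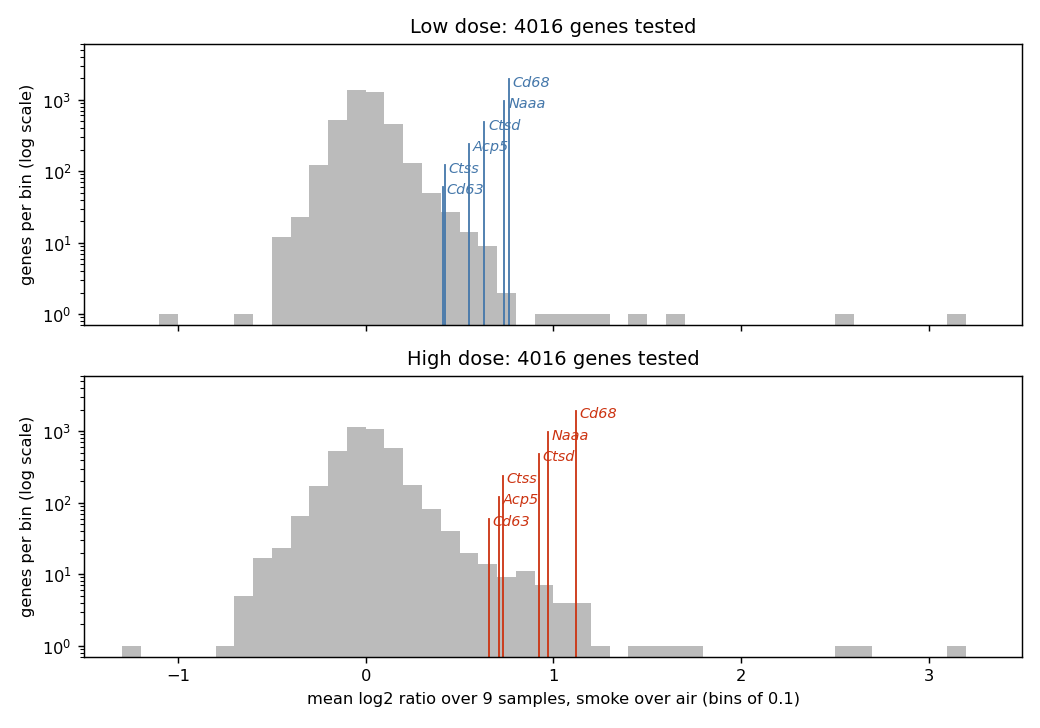
Histogram of the mean log2 ratio over 9 samples (horizontal axis, bins of 0.1) for the 4016 genes tested at the low dose and at the high dose, with the number of genes per bin on a log scale and a coloured line at each of the 6 genes. All 6 lines lie to the right of the 95th percentile of all genes, which is 0.22 at the low dose and 0.30 at the high dose, and the line heights only separate the names.

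The order of the mean log2 ratios at the high dose was Cd68, Naaa, Ctsd, Ctss, Acp5 and Cd63. Neighbours in this order differed by 0.02 to 0.19, each by less than the SD of that difference over the 9 samples, which ran from 0.20 to 0.30. That SD is the spread of single samples and not the error of a mean difference, and the steps were not tested. The largest step was from Ctsd to Ctss, with Ctsd higher in 7 of 9 samples (0.19, SD 0.20). At the low dose the order was Cd68, Naaa, Ctsd, Acp5, Ctss and Cd63, again with every step below its SD. Cd68 was the highest of the 6 in 9 of 18 samples and the lowest in 0. These are ratios and not levels, so the order says nothing of which transcript was more abundant.

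Between the doses, the 6 genes were higher at the high dose in most of the 9 pairs that share a control pool, with mean differences from 0.16 (log2) for Acp5 to 0.36 for Cd68. Cd68 was higher at the high dose in 9 of 9 pairs, with a difference of 0.36 ± 0.08 (SE; 95% interval 0.19 to 0.53), or 1.28-fold, and limma adjusted p = 0.0674. Ctss was higher in 9 of 9 pairs by 0.31 ± 0.07 (SE; 95% interval 0.17 to 0.45), or 1.24-fold, with limma adjusted p = 0.0603. Ctsd was higher in 9 of 9 pairs by 0.29 (95% interval 0.13 to 0.45, limma adjusted p = 0.13), and its smallest pair difference was 0.01, after 13 weeks and 6 hours. Cd63 and Naaa were each higher in 8 of 9 pairs, by 0.24 (limma adjusted p = 0.261) and 0.23 (limma adjusted p = 0.253), and the exceptions were -0.02 for Cd63 after 13 weeks and 2 hours and -0.24 for Naaa after 7 weeks and 2 hours. Acp5 was higher in 7 of 9 pairs, by 0.16 (95% interval 0.00 to 0.31, limma adjusted p = 0.498).

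So 0 of 6 genes passed the adjusted threshold between doses in limma, where 0.149% of the 4016 genes passed as higher. In the exact sign-flip permutation test over the 9 differences, 0 of 6 and 0% of all genes passed after adjustment. That test could pass no gene here, since its smallest possible p of 0.00391, which Cd68 had, gave an adjusted p of 0.387. At an unadjusted limma p under 0.05, 6 of 6 were higher at the high dose, against 6.03% of all genes. Of the 6 genes 5, all except Acp5, were higher at the high dose in at least 8 of 9 pairs, against 4.07% of the 3560 genes with every value. The median of the 6 differences was 0.27, beside 0.01 over all genes tested. When only genes with a value in every sample were tested, Cd68 (adjusted p = 0.0425) and Ctss (adjusted p = 0.0348) passed in limma. Without the samples of 2 weeks and 20 hours Ctss passed (limma adjusted p = 0.0368), while without any other single combination its limma adjusted p ran from 0.0789 to 0.147. With a robust trended prior in limma neither Cd68 nor Ctss passed (adjusted p = 0.397 for both).

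**Figure D3:**
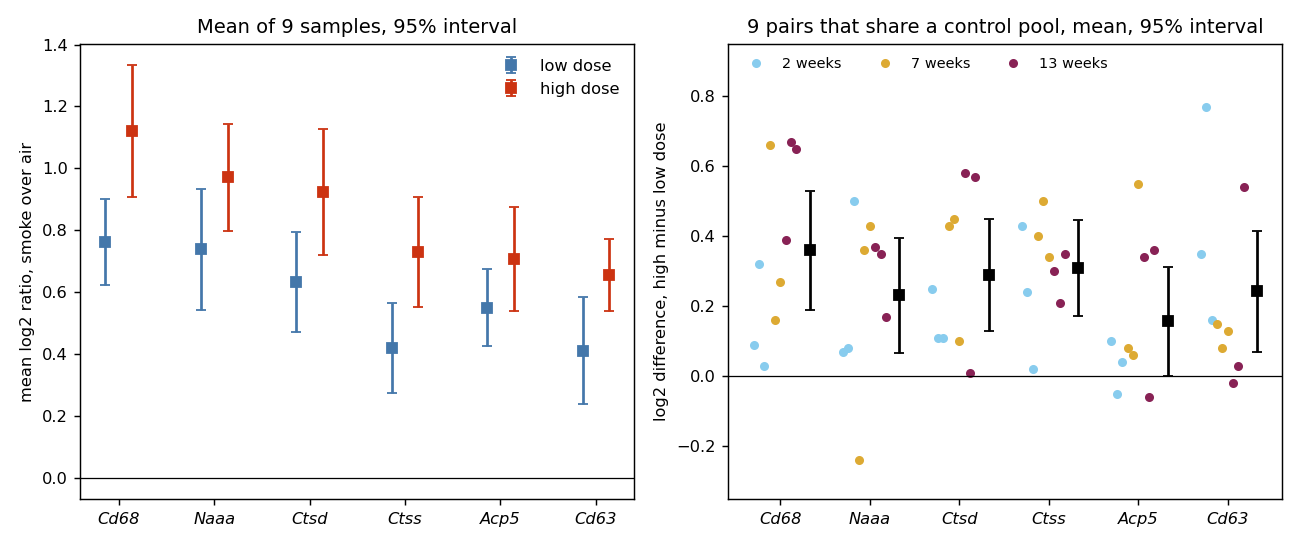
Left, mean log2 ratio of smoke over air with its 95% interval at the low dose and high dose (n = 9 each), and right, the 9 log2 differences of high minus low dose per gene, coloured by weeks, with their mean and 95% interval as black squares. The high dose mean lies above the low dose mean for each of the 6 genes, from 0.16 for Acp5 to 0.36 for Cd68, and the 4 coloured points below 0 belong to Naaa, Acp5 and Cd63.

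Over the length of exposure, the ratios of Cd68, Ctsd and Naaa after 7 weeks lay above those after 2 weeks in every sample. For Cd68 the 2, 7 and 13 week values at the high dose were 0.67, 0.83 and 0.62, then 1.65, 1.07 and 1.21, then 1.25, 1.58 and 1.21, each in the order 2, 6 and 20 hours. Its low dose values were 0.58, 0.51 and 0.59 after 2 weeks, 0.99, 0.91 and 0.94 after 7 weeks and 0.86, 0.91 and 0.56 after 13 weeks. The 6 values after 2 weeks all lay below the 6 after 7 weeks, while those after 13 weeks overlapped both.

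Ctsd had high dose values of 0.41, 0.72 and 0.52 after 2 weeks, 1.34, 1.37 and 0.88 after 7 weeks and 1.18, 0.83 and 1.06 after 13 weeks. At the low dose Ctsd had 0.16, 0.61 and 0.41, then 0.91, 0.92 and 0.78, then 0.60, 0.82 and 0.49. Naaa had high dose values of 0.62, 0.56 and 0.78 after 2 weeks, 1.17, 1.23 and 1.31 after 7 weeks and 0.93, 1.24 and 0.90 after 13 weeks. In both of these genes the mean was highest after 7 weeks and no 7 week value overlapped a 2 week value. As for Cd68, the 13 week values overlapped those of 2 weeks and those of 7 weeks. Such a separation over all 6 samples of both weeks held for 3 of the 6 genes, and for 0.478% of the 3560 genes with every value.

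The mean difference of 7 minus 2 weeks was 0.60 ± 0.11 (SE) for Naaa, 0.56 ± 0.11 for Ctsd, 0.50 ± 0.12 for Cd68, 0.39 ± 0.10 for Ctss, 0.33 ± 0.09 for Cd63 and 0.19 ± 0.10 for Acp5. Their median was 0.44, beside 0.01 over all genes. For 13 minus 2 weeks the median was 0.34, and Ctss had the largest difference at 0.48 ± 0.10 (SE). For 13 minus 7 weeks the differences ran from -0.27 ± 0.11 (SE) for Naaa to 0.09 ± 0.10 for Ctss, with a median of -0.05. That of Naaa had an unadjusted limma p of 0.0347 and an adjusted p of 0.999, and that of Ctsd was -0.20 ± 0.11 (SE).

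The F test over the 3 lengths of exposure passed for 0 of 6 genes after adjustment in limma, where 0.125% of the 3994 genes tested passed. Adjusted p was 0.206 for Naaa and Ctss, 0.243 for Ctsd, 0.312 for Cd68, 0.428 for Cd63 and 0.891 for Acp5. Without adjustment, 5 of 6 had p under 0.05, all except Acp5, against 6.06% of all genes, and by that p Naaa, Ctss, Ctsd, Cd68 and Cd63 stood at places 15, 17, 20, 27 and 50 of 3994. Each combination had its own air pool, so a difference between weeks also holds any change of the control lungs with time.

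Over the hours after the last exposure, Acp5 was the gene among the 6 whose samples separated. Its log2 ratios at 2 hours were 0.67, 0.85 and 0.70 at the low dose and 0.77, 0.93 and 1.04 at the high dose, after 2, 7 and 13 weeks. At 6 hours they were 0.43, 0.48 and 0.48, and 0.38, 0.54 and 0.42, and at 20 hours 0.38, 0.43 and 0.53, and 0.42, 0.98 and 0.89. Every 2 hour value was above every 6 hour value, a pattern found in 1 of the 6 genes and in 1.40% of the 3560 genes with every value, whereas the 20 hour values overlapped both. The mean difference of 6 minus 2 hours was -0.37 ± 0.10 (SE, limma adjusted p = 0.0852). In the F test over hours 0 of 6 genes passed after adjustment in limma, against 1.60% of the 3994 genes tested, with adjusted p = 0.147 for Acp5 and from 0.421 (Ctss) to 0.908 (Naaa) for the other genes. Without adjustment 1 of 6, Acp5, had p under 0.05, a share near the 16.2% of all genes that did.

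Whether the dose difference itself varied with time was tested on the 9 pair differences. Over hours 0 of 6 genes passed in limma and 0% of all 3994 genes did, and over weeks 0 of 6 and again 0%, while 143 and 187 genes had an unadjusted p under 0.05, none of the 6 among them. For Cd68 the high minus low difference was 0.09, 0.32 and 0.03 after 2 weeks and 0.39, 0.67 and 0.65 after 13 weeks, and the increase of 0.42 ± 0.20 (SE) had limma adjusted p = 0.942, with 0.999 for the F test over weeks. For Acp5 the difference was -0.05, 0.06 and -0.06 at 6 hours and 0.04, 0.55 and 0.36 at 20 hours. This increase of 0.33 ± 0.18 (SE) had limma adjusted p = 0.999.

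Averaged over the 6 genes, the lowest sample was the low dose at 2 weeks and 20 hours (0.33) and the highest the high dose at 7 weeks and 2 hours (1.12). Across the 18 samples, which share control pools in pairs, Pearson's r between genes ran from 0.41 (Ctsd and Acp5) to 0.82 (Ctsd and Ctss). Across the 9 differences between doses, in which the shared control pool cancels, it ran from -0.43 (Cd68 and Naaa, Ctss and Naaa) to 0.54 (Ctsd and Ctss). The genes thus moved together over the samples more closely than in how far the high dose exceeded the low dose, as a description of these values.

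Of the 1461 other genes with 18 values and an SD of at least 0.2, the pattern most like the mean of the 6 was that of Lgals3, which encodes the macrophage lectin galectin-3 (Pearson's r = 0.93, n = 18 samples that share control pools in pairs). It was followed by Lcn2 (0.88), the secreted siderophore-binding protein lipocalin 2, Il1r2 (0.86), the decoy receptor for interleukin 1, Tnfsf13 (0.83), the ligand APRIL, Serpinb1a (0.83), an inhibitor of neutrophil serine proteases, and Pld3 (0.82), a nuclease of the lysosome. Lgals3 ran from 0.28 to 1.26 at the low dose and from 0.75 to 1.76 at the high dose, with medians of 1.14 and 1.41. Lgals3 also passed the F test over weeks (limma adjusted p = 0.0148), as did Lcn2 (limma adjusted p = 0.03). Taken singly, the most similar gene was Lcn2 for Cd68 (0.87), Lgals3 for Cd63 (0.87), Tnfsf13 for Ctsd (0.86), Il1r2 for Ctss (0.94), Batf for Naaa (0.85) and Foxk1 for Acp5 (0.81). Foxk1 had a mean of 0.12 at the high dose (limma adjusted p = 0.318), so a similar pattern did not require a rise against air.

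Of 87 other listed genes of the lysosome 39 were tested, and in limma 17 rose, 0 fell and the rest did not pass at the high dose, while 8 rose and 0 fell at the low dose. Over all genes tested, 9.56% rose and 7.64% fell at the high dose, and 3.51% rose and 1.44% fell at the low dose. The median log2 ratio of the 39 was 0.12 at the high dose and 0.08 at the low dose. None of them passed between doses or over weeks or hours.

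Proteases of the lysosome made up the largest share of these. All 9 tested cathepsins and related proteases rose at the high dose and 6 of 9 at the low dose, with medians of 0.41 and 0.32. Cathepsin Z (Ctsz) rose by 0.69 ± 0.10 (SE, n = 9, limma adjusted p = 0.000511) and cathepsin B (Ctsb) by 0.61 ± 0.06 (limma adjusted p = 7.56e-06). Legumain (Lgmn), a protease that processes cathepsins, rose by 0.47, and Ctsa, the protective protein of lysosomal glycosidases, by 0.46. Each of these lay below the high dose mean of Ctsd, and Ctsz alone lay above that of Cd63.

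Other roles in the lysosome were described in the same way at the high dose, with few genes tested in each. Among glycosidases, sulfatases and phosphatases 2 of 5 rose, namely Hexa (0.45 ± 0.10 SE), which degrades gangliosides, and Fuca1 (0.24), a fucosidase. Among lipid hydrolases and their activators 1 of 6 rose, Psap (0.37), the saposin precursor, and the median of these 6 was -0.01. Among membrane and sorting genes 4 of 13 rose, namely Lamp2 (0.32), Laptm5 (0.30), Lamp1 (0.26) and the calcium channel gene Mcoln1 (0.22). Of the proton pump that acidifies the lysosome 0 of 3 tested subunits passed in limma, 0 of them had an unadjusted p under 0.05, and the largest mean was 0.12 (Atp6v1f). Among transcription factors 1 of 3 rose, Tfec (0.24 ± 0.06 SE, limma adjusted p = 0.017), a relative of TFEB expressed in macrophages, whereas Tfeb itself, named after its value was seen, had a mean of 0.07 (limma adjusted p = 0.649). At the low dose Lamp1 and Laptm5 were the 2 genes outside the proteases that rose.

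**Figure D4:**
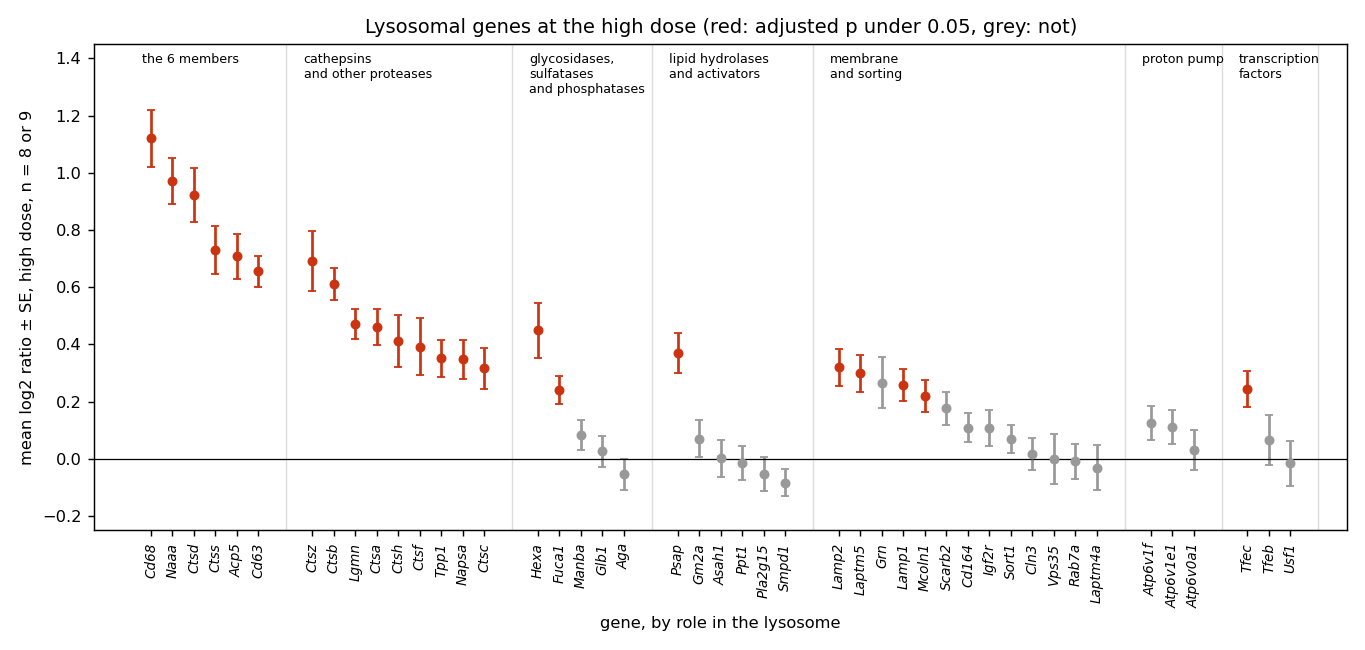
Mean log2 ratio of smoke over air at the high dose with its SE (vertical axis) for the 6 genes and the 39 tested genes of the lysosome lists, grouped by role along the horizontal axis. Red points have an adjusted p under 0.05 and grey points do not, and all 9 proteases are red while the 3 proton pump subunits are grey.

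Relatives and partners of the 6 outside the lysosome lists went in both directions. Of 8 other tetraspanins tested, 2 rose and 4 fell at the high dose, with a median of -0.15, and Cd37 fell by 0.40, Tspan6 fell by 0.31 and Tspan8 fell by 0.25 while Cd53, a leukocyte tetraspanin, rose by 0.28. Of 5 inhibitors of cathepsins and related proteases, 2 rose, Serpinb1a (0.47) and cystatin B (Cstb, 0.46), and 1 fell, the broad protease inhibitor A2m (-0.19). Of 5 tested genes listed under fatty acid amide and N-acylethanolamine enzymes, 0 passed in limma at either dose and 0 had an unadjusted p under 0.05. The largest high dose values were -0.13 for Mgll and -0.07 for Abhd6, and Abhd6 had 0.14 at the low dose.

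Markers of several cell types changed in the same samples, and their part in the rise of the 6 genes was not tested. Of 18 macrophage markers tested, 11 rose and 3 fell at the high dose, and 9 rose and 1 fell at the low dose. The mean of this list ran from 0.03 to 0.38 over the low dose samples and from 0.18 to 0.56 over the high dose samples, so it was above 0 in each. Lgals3 (1.28 ± 0.10 SE), the lipid-binding protein gene Fabp5 (0.90) and the macrophage elastase gene Mmp12 (0.81) rose most. Adgre1, which encodes the macrophage surface receptor F4/80, went the other way and fell by 0.72 (± 0.06 SE, limma adjusted p = 4.69e-06), with high dose values between a lowest of -1 and a highest of -0.47. Among macrophage markers the rise was therefore not shared by each gene, and the label of these genes as those of loaded macrophages could not be checked in whole lung, where neither cell numbers nor particle load were measured.

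Lymphocyte markers fell in 10 of 10 genes tested at the high dose and in 1 of 10 at the low dose, with Cd79b (-0.61) and Prf1 (-0.57) lowest and a list mean from -0.88 to -0.22 over the high dose samples. Of 7 neutrophil markers 2 rose and 3 fell at the high dose, and the list mean ran from -0.77 to 1.02. S100a9 rose by 1.43 ± 0.41 (SE) and Cxcr2 by 0.55, while Fcnb fell by 0.46 and Retnlg fell by 0.43. Of 8 dendritic cell markers 4 rose, led by RT1-Da (0.45), an MHC class II gene. Of 5 alveolar epithelial markers 2 rose, Sftpa1 (0.54) and Sftpd (0.50), and 1 fell, Aqp5 (-0.29), and of 2 airway markers 1 rose, Foxj1 (0.52).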

How the data were processed

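The values are log2 ratios of smoke-exposed over air-exposed lung RNA in 18 samples, which the authors deposited as 1 table. Per the labels, 2 µg of amplified RNA was labelled by reverse transcription. The scanner, background correction and normalization: not given in the sources used here. Among the 257 values under -1, 100% matched log2 of a 2-decimal ratio. Sample medians lie between -0.01 and 0.01, so the values appear centred. Of all cells 12.9% are empty, and a sample has values for 3919 to 4583 genes. No intensities were used, which leaves signal over background unknown, and 9 samples per dose limit the precision.

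Rows repeating a probe were merged, and a gene is the mean of its distinct probes. A gene was tested if at least 6 of 9 combinations had both doses measured, which left 4016. Tests used limma 3.58.1 (lmFit, eBayes, two-sided) in R 4.3.3 with statmod 1.5.0, Benjamini-Hochberg adjustment over all genes and a threshold of 0.05. Means against air used the 9 samples of a dose, and the dose comparison the 9 differences within a control pool. Weeks and hours were tested by F tests on the 9 means of both doses, with the other factor as covariate. The pairing of low dose and high dose samples comes from the control source names in the labels. The fits were tested on simulated data. Python 3.11.15 read the tables and matplotlib 3.10.9 drew the plots.

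The 6 genes, the lists and the tests were chosen with earlier results of these data known. All 6 are named. From each list up to 4 tested genes past the threshold at the high dose with the largest absolute change are named, otherwise up to 2 with the largest change, and most similar genes by Pearson correlation. Of 211 listed symbols 107 were tested. Alternatives were a median centring, a common spread, other filters, probes on their own, a robust trended prior, sign-flip tests, a 1.5-fold minimum, no replicate block, a random block for the control pool, no covariate, 1 dose alone, and leaving out combinations, weeks or hours.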

Additional observations from a re-analysis of the deposited data

Results flagged for a closer look

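The high dose value of Ctss after 2 weeks and 20 hours, a log2 ratio of 0.10, stood apart from the other 8 high dose samples, of which the nearest was 0.55. The gap was 0.506 of the whole range of the 9 values, above Dixon's 95% critical value for 9 samples. It was the only such value among 18 groups examined (the low dose, the high dose and their difference for 6 genes), of which chance alone marks about 1 in 20. The low dose sample of the same control pool was also the lowest of its dose for Ctss, at 0.08. Without this combination the dose difference of Ctss passed the threshold (limma adjusted p = 0.0368). The combination was picked from these same values and held the smallest dose difference of Ctss (0.02), so this is no separate evidence of a dose effect. Without any other single combination the limma adjusted p ran from 0.0789 to 0.147.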

How the results depend on the processing

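At the high dose all 6 genes kept their rise and call under 24 of 24 alternatives, with Cd68 between 1.01 and 1.33 and Cd63 between 0.62 and 0.72 (log2). The highest adjusted p among these was 0.0487, in the exact sign-flip permutation test. At the low dose 0 genes passed with the exact sign-flip permutation test, whose smallest p of 0.00391 gave an adjusted p of 0.114 for all but Cd63, and 3 passed with a change of at least 1.5-fold. Between doses, 2 genes passed with a value in every sample. Leaving out 1 combination gave 0 to 1 genes between doses and 6 at the low dose. At the low dose 4 genes passed in limma without the samples of 7 weeks or of 13 weeks. Without those of 2 hours or of 20 hours 5 passed. Without the replicate block, which drops the pairing by control pool, 0 genes passed between doses (adjusted p = 0.769 for Cd68). For hours and weeks 0 genes passed under 17 of 17 alternatives each. No direction reversed. Counts over all genes moved from 691 to between 62 and 886 at the high dose, from 199 to between 0 and 272 at the low dose, from 7 to between 0 and 24 between doses, from 64 to between 18 and 109 over hours and from 5 to between 1 and 7 over weeks. The small number of arrays and the unknown signal over background limit these values.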
